A study of Mus musculus with 16 samples.

Results

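The presynaptic vesicle and release machinery was followed here as 37 genes, taken by symbol from the 27179 genes of the deposited count tables. The set holds 14 synaptotagmins, 4 SNAREs, 2 complexins, 4 RIMs, 3 MUNC13s, 2 active zone scaffolds, 2 synaptophysins, 3 SV2 proteins and 3 synapsins, and the rule that chose them names genes by role, with no measured value in it. Of the 37 genes, 36 had enough counts to be tested, as had 15177 genes of the whole table. The remaining member, Unc13c, is described by its counts.

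The study asked what loss of KAT7 does to neural stem and progenitor cells. KAT7, also called HBO1, is a histone acetyltransferase. Cells came from the dissected cortex and ganglionic eminence of E14.5 foetuses and grew as neurospheres. Null cells had the genotype Kat7lox/lox NesCreT/+ and intact cells the genotype Kat7+/+ NesCreT/+, so both carried the Cre transgene, named for the Nestin sequences that direct Cre to neural progenitors. Isolates came from 4 foetuses of each genotype. The groups were null differentiating cells, intact differentiating cells, null proliferating cells and intact proliferating cells, with 4 libraries each. Differentiating cells had spent 3 days in cortical neuron medium, attached to laminin, after passage 3, and proliferating cells were kept for 3 passages and 3 days. Such cultures hold progenitors, young neurons and glia in unknown proportions.

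Synaptic vesicles fuse with the presynaptic membrane when the vesicle SNARE protein synaptobrevin, encoded by Vamp1 or Vamp2, zips up with syntaxin 1 and SNAP25. MUNC13 and RIM proteins prepare docked vesicles for fusion at the active zone, complexins hold and assist the partly assembled SNARE complex, and synaptotagmins sense the calcium that triggers it. Synapsins keep a reserve of vesicles clustered near the active zone. Several of these genes are already transcribed in young neurons before synapses form, and some members act in membrane traffic of other cells.

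Libraries held 16784286 to 47890535 counts with 16322 to 18774 genes detected. Kat7 had 1 count over the 4 null differentiating libraries and 8 counts over the 4 null proliferating libraries, against 103 ± 3.08 and 139 ± 5.59 CPM in intact differentiating and intact proliferating libraries (counts per 1000000 of the scaled library size, mean ± SD, n = 4). Levels between samples are given in CPM below, and the values of a group follow the order of its replicates 1 to 4. Levels between genes are given in RPKM, the counts per kilobase of the deposited gene model, scaled to library size as CPM are. The 7 markers of neural stem cells summed to 4090 to 5160 CPM in null and 2567 to 3422 CPM in intact differentiating cells, and to 6895 to 7342 and 6688 to 7360 CPM in null and intact proliferating cells. Of these markers 5 were higher in null differentiating cells, beside 24.3% of all tested genes. In null proliferating cells 2 were higher and 1 lower, beside 19.0% and 19.7% of all tested genes. Markers of microglia summed to at most 0.372 CPM and those of endothelium to at most 4.71 CPM in any library.

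Markers of neurons were detected in all cultures, and in differentiating cells all 5 glutamatergic markers were lower and 2 of 5 GABAergic markers higher in null cells. The 12 neuron markers, none of them a member, summed to 2771 to 3226.5 CPM in null and 2509.8 to 7743 CPM in intact differentiating cells. Of these markers 5 were lower and 1 higher in null cells, with a median log2 fold change of -1.08. Over all tested genes 22.0% were lower and 24.3% higher in null differentiating cells, and 19.7% and 19.0% in null proliferating cells. The 5 glutamatergic markers summed to 3.28 to 9.24 CPM in null and 55.2 to 626 CPM in intact differentiating cells, and all 5 were lower. The 5 GABAergic markers summed to 108 to 154 CPM in null and 18.9 to 109.7 CPM in intact differentiating cells, with 2 higher and 1 lower in null cells. In proliferating cells the neuron markers summed to 1479.5 to 1739 CPM in null and 1394 to 1550.1 CPM in intact libraries. Of these markers 3 were lower in null cells, with a median log2 fold change of -0.08. The glutamatergic sum in proliferating cells was 0.125 to 0.284 CPM in null libraries, with Slc17a6 at 0 in all 4, and 1.01 to 10.95 CPM in intact libraries. In proliferating cells the GABAergic sum was 8.74 to 21.3 CPM in null and 1.38 to 6.11 CPM in intact libraries, with Gad1 higher and Gad2 lower in null cells. Astrocyte markers summed to 4908.7 to 7800.7 CPM in null and 1631.0 to 2456.1 CPM in intact differentiating cells, with 5 of 7 higher in null cells. Oligodendrocyte lineage markers summed to 1897 to 2361 CPM in null and 3490 to 6708 CPM in intact differentiating cells, with 5 of 8 lower in null cells. In proliferating cells the astrocyte sum was 2188 to 3325 CPM in null and 1201 to 1763 CPM in intact libraries, with 3 of 7 markers higher in null cells. The oligodendrocyte lineage sum was 1768 to 2257 CPM in null and 2967 to 3157 CPM in intact proliferating libraries, with 6 of 8 markers lower in null cells. The part of these differences in the results on the presynaptic genes was not tested. In bulk libraries fewer cells of a type and less RNA per cell cannot be told apart.

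Both intact libraries numbered 1 stood apart from their groups. The 37 genes together had 4506 CPM in intact differentiating replicate 1, against 1934 to 2582 CPM in the other 3 libraries of its group and 1916 to 2044 CPM in the null differentiating libraries. In intact proliferating replicate 1 they had 1449.5 CPM, against 964 to 1020.0 CPM in the other 3 libraries and 1269.8 to 1559.7 CPM in the null proliferating libraries. The glutamatergic sum was also highest in these libraries of their groups, at 626 and 10.95 CPM. The sums of the 37 genes are weighted to the most abundant members. Syt11 had 808 CPM in intact proliferating replicate 1 and 425 to 449 CPM in the other 3 libraries. Syt4 had 996 CPM in intact differentiating replicate 1 and 36.4 to 146 CPM in the other 3. In null proliferating cells Syt11 and Cplx2 averaged 723 and 218 CPM, against 527 and 73.0 CPM in intact proliferating cells.

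**Figure D1:**
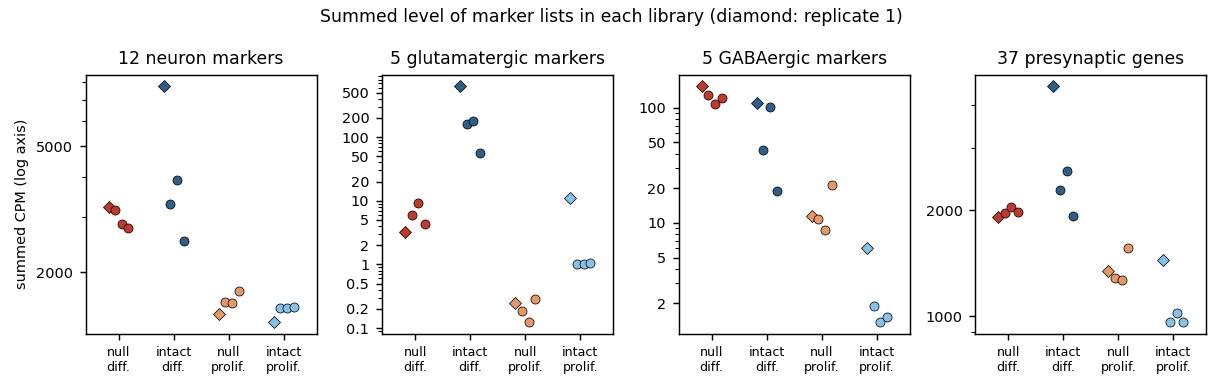
Summed CPM (log axis) of the 12 neuron, 5 glutamatergic and 5 GABAergic markers and of the 37 presynaptic genes in each of the 16 libraries, by group (points: libraries, diamonds: replicate 1). The glutamatergic sum of the null differentiating libraries, 3.28 to 9.24 CPM, lies below that of every intact differentiating library, 55.2 to 626 CPM, while the GABAergic ranges of 108 to 154 and 18.9 to 109.7 CPM overlap. The sum of the 37 presynaptic genes is weighted to abundant members such as Syt11.

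Most of the release machinery was lower in differentiating cells without KAT7. Of the 37 genes, 23 were lower and 5 higher in null than in intact differentiating cells by edgeR's quasi-likelihood test (adjusted p under 0.05). Over all tested genes 22.0% were called lower and 24.3% higher in this comparison, which are 3345 and 3691 genes. This split turned with the scaling: 4123 were lower and 2677 higher with library size scaling alone, 3715 and 3116 with relative log expression size factors, and 3863 and 3306 with DESeq2, while the members were 24 lower and 5 higher, 24 and 5, and 25 and 5 in these fits. The median log2 fold change of the 36 tested members was -1.36, against 0.04 over all tested genes. It was -1.08 over the 12 neuron markers and -1.28 over 50 further presynaptic genes described below. Of the 23 lower members, 21 fell by at least 2-fold, among them Syt1, Snap25, Stx1a, Rims1, Syp, Sv2a and Syn1. The 5 higher members were Syt17, Vamp1, Syn2, Cplx2 and Sv2c. Without both intact libraries numbered 1, a choice made after the data were seen, 21 members were lower and 5 higher. Over all 15252 genes tested in that fit, 3514 were lower and 4050 higher.

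In proliferating cells, where most of these genes were expressed at lower levels, 14 members were lower and 6 higher in null than in intact cells, beside 19.7% and 19.0% of all tested genes, which are 2985 and 2879 genes. With library size scaling alone these were 3847 and 2234 genes, and 15 members were lower and 4 higher. The median of the members was -0.55, against -0.01 over all tested genes, -0.08 over the 12 neuron markers and -0.57 over the further presynaptic genes. The 12 members lower in both stages were Syt1, Syt6, Syt10, Syt16, Rims1, Rims3, Rims4, Syp, Synpr, Sv2a, Sv2b and Syn3, and 9.86% of all tested genes were lower in both. The 4 members higher in both were Syt17, Vamp1, Syn2 and Cplx2, beside 9.79% of all tested genes. Without both intact libraries numbered 1, 14 members were lower and 7 higher in null proliferating cells, beside 3671 and 3682 of all 15252 genes tested in that fit. Leaving out 1 library at a time gave 10 to 16 lower and 4 to 7 higher members, with the 4 found without null proliferating replicate 2. Over all tested genes these fits gave 2605 to 3491 lower and 2405 to 3279 higher.

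**Figure D2:**
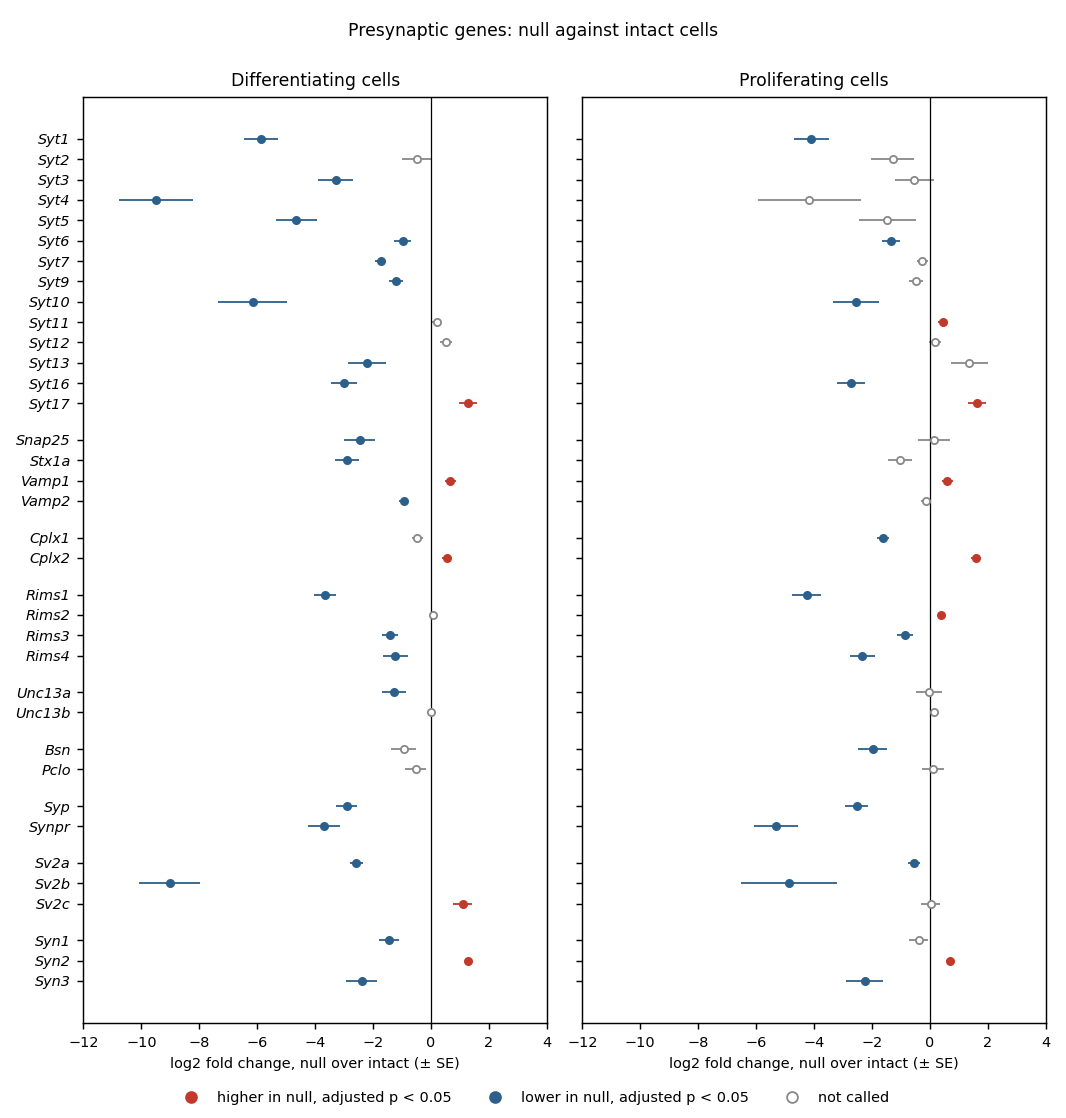
Log2 fold change (null over intact, ± SE) of the 36 tested members in differentiating (left) and proliferating cells (right), ordered by role; filled points passed edgeR's adjusted p of 0.05. In differentiating cells 23 genes lie to the left as called lower and 5 to the right as called higher; in proliferating cells 14 and 6 do.

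Synaptotagmins are membrane proteins of vesicles and other compartments, some of which sense calcium. Of the 14 genes, 10 were lower and 1 was higher in null differentiating cells, beside 22.0% and 24.3% of all tested genes. Syt1, the sensor of fast, synchronous release (Entrez 20979; GRCm38 chromosome 10, 108497650 to 109010980), had 2.13, 0.797, 1.81 and 1.74 CPM in null and 204, 59.8, 84.7 and 28.2 CPM in intact differentiating libraries. In proliferating cells Syt1 had 0.628, 1.36, 1.21 and 1.47 CPM in null and 10.7, 19.3, 17.9 and 31.4 CPM in intact libraries. Null libraries were lowest throughout, with no overlap in either stage. The log2 fold changes were -5.86 ± 0.59 in differentiating cells (edgeR adjusted p = 2.3e-06) and -4.09 ± 0.59 in proliferating cells (edgeR adjusted p = 7.8e-05). Without intact differentiating replicate 1 the first of these was -5.15. Syt9, which can also drive fast release, had 5.34, 7.41, 5.60 and 6.47 CPM in null and 21.6, 12.8, 12.7 and 10.4 CPM in intact differentiating libraries, a log2 fold change of -1.21 ± 0.24 without overlap (edgeR adjusted p = 7.0e-04). In proliferating cells its libraries overlapped, at 2.93, 5.86, 3.25 and 4.28 CPM in null and 4.99, 5.20, 5.62 and 6.66 CPM in intact cells (-0.47 ± 0.24, edgeR adjusted p = 0.139). Syt2, a fast sensor of hindbrain synapses, had at most 0.694 CPM as the mean of any group and was called in neither genotype comparison.

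Syt7 and Syt3 encode slower sensors of high calcium affinity. Syt7 stood at 19.9, 16.8, 15.1 and 17.0 CPM in null and 82.6, 46.3, 58.7 and 42.6 CPM in intact differentiating libraries. In proliferating cells Syt7 had 63.0, 61.4, 62.9 and 76.1 CPM in null and 59.0, 86.6, 90.0 and 79.5 CPM in intact libraries. The genotypes were thus separate in differentiating cells (-1.74 ± 0.19, edgeR adjusted p = 4.5e-06) and overlapped in proliferating cells (-0.26 ± 0.18, edgeR adjusted p = 0.279). Without both intact libraries numbered 1 the value in proliferating cells was -0.37 and called (edgeR adjusted p = 0.0146). Syt3 had 0.663, 1.01, 0.660 and 0.812 CPM in null and 18.2, 5.66, 5.40 and 1.62 CPM in intact differentiating libraries (-3.29 ± 0.61, edgeR adjusted p = 4.4e-04). All null libraries were below all intact libraries, and the value was -2.42 without intact differentiating replicate 1. In proliferating cells Syt3 had 0.279, 0.678, 0.250 and 0.879 CPM in null and 1.11, 0.433, 0.461 and 1.04 CPM in intact libraries, which overlapped (-0.54 ± 0.67, edgeR adjusted p = 0.552).

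The related genes Syt4 and Syt11, whose products bind calcium poorly, were unlike each other. Syt4 had 0.279, 0.551, 0.724 and 0.145 CPM in null and 996, 146, 119.5 and 36.4 CPM in intact differentiating libraries. In proliferating cells Syt4 had 0.105, 0, 0.125 and 0.283 CPM in null and 9.30, 0.704, 0.737 and 0.405 CPM in intact libraries. The null libraries were below the intact libraries in both stages, by -9.49 ± 1.27 in differentiating cells (edgeR adjusted p = 2.9e-05) and -4.16 ± 1.77 in proliferating cells (edgeR adjusted p = 0.0730, not called). Without intact differentiating replicate 1, the library with 996 CPM, the first of these was -7.81. In the GENCODE annotation of GRCm38, some of the exonic bases of Syt4 also lie in exons of Gm26658. Syt11 was the most abundant member per length in all groups, at 234 ± 13.2 RPKM in null and 206 ± 16.3 RPKM in intact differentiating cells and at 158 ± 18.4 and 115 ± 41.0 RPKM in null and intact proliferating cells. Syt11 had 993, 1055, 1132 and 1098 CPM in null and 839.6, 924, 991 and 1001 CPM in intact differentiating libraries (0.19 ± 0.17, edgeR adjusted p = 0.388). In proliferating cells Syt11 had 698, 682, 665 and 848 CPM in null and 808, 427, 449 and 425 CPM in intact libraries (0.46 ± 0.17, edgeR adjusted p = 0.0458). The intact library with 808 CPM, replicate 1, overlapped the null range, and the call was lost in 17 of 22 alternatives, with an adjusted p of up to 0.134.

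Syt5, Syt6 and Syt10 encode synaptotagmins of large dense-core and other secretory vesicles. Syt5 had 1.29, 1.47, 1.32 and 0.870 CPM in null and 78.8, 18.5, 22.7 and 4.64 CPM in intact differentiating libraries, without overlap (-4.65 ± 0.70, edgeR adjusted p = 7.9e-05; -3.62 without intact differentiating replicate 1). In proliferating cells Syt5 was at 0.209, 0.247, 0.125 and 0.283 CPM in null and 1.50, 0.271, 0.368 and 0.315 CPM in intact libraries, which overlapped. Syt6 had 5.06, 4.75, 6.35 and 5.65 CPM in null and 15.1, 9.79, 10.3 and 7.85 CPM in intact differentiating libraries (-0.98 ± 0.29, edgeR adjusted p = 0.0114). In proliferating cells Syt6 had 2.76, 3.88, 1.91 and 1.08 CPM in null and 7.37, 5.25, 5.80 and 5.49 CPM in intact libraries (-1.34 ± 0.30, edgeR adjusted p = 0.00285). All null libraries were below all intact libraries in both stages for Syt6. Syt10 had 1 count over the null and 98 counts over the intact differentiating libraries, a ratio of 0.864% (95% exact counting interval 0.0217 to 4.93%). It was called lower in null cells in both stages, with 13 counts over the null and 68 over the intact proliferating libraries. Its fitted log2 fold change was -6.16 in differentiating cells, or -7.51 without null differentiating replicate 4, the library with the 1 count, and -2.56 in proliferating cells, or -3.26 without null proliferating replicate 2.

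The remaining synaptotagmins lack a known role as calcium sensors of release. Syt16 had 3.87, 3.16, 2.73 and 2.84 CPM in null and 57.0, 15.8, 20.5 and 7.91 CPM in intact differentiating libraries. Syt16 had 1.19, 0.987, 1.12 and 0.850 CPM in null and 10.1, 5.74, 6.54 and 5.13 CPM in intact proliferating libraries. The genotypes did not overlap in either stage, with log2 fold changes of -3.01 ± 0.46 (edgeR adjusted p = 8.7e-05; -2.23 without intact differentiating replicate 1) and -2.73 ± 0.49 (edgeR adjusted p = 5.3e-04). Syt17 went the other way, with 2.09, 2.24, 2.53 and 3.33 CPM in null and 1.80, 0.782, 0.583 and 0.989 CPM in intact differentiating libraries. In proliferating cells Syt17 had 3.10, 4.13, 3.20 and 4.11 CPM in null and 1.26, 1.24, 0.829 and 1.40 CPM in intact libraries. Null libraries were above intact libraries in both stages, by 1.28 ± 0.30 (edgeR adjusted p = 0.00249) and 1.62 ± 0.30 (edgeR adjusted p = 6.8e-04). Syt13 had 0.628, 0.643, 0.788 and 0.435 CPM in null and 6.50, 1.04, 3.50 and 0.539 CPM in intact differentiating libraries (-2.20 ± 0.65, edgeR adjusted p = 0.0120). The lowest intact library was within the null range, and without intact differentiating replicate 1 the difference was -1.41 and no longer called (edgeR adjusted p = 0.0678). In proliferating cells Syt13 had 7.71, 4.07, 3.99 and 1.47 CPM in null and 2.23, 1.41, 1.01 and 2.03 CPM in intact libraries (1.36 ± 0.63, edgeR adjusted p = 0.0972). That difference was 1.53 and called without both intact libraries numbered 1 (edgeR adjusted p = 0.0459). Syt12 averaged 1.26 CPM in null, against 0.878 CPM in intact differentiating cells, and was called in neither stage; 17.2% of its exonic bases lie in exons of A930001C03Rik.

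**Figure D3:**
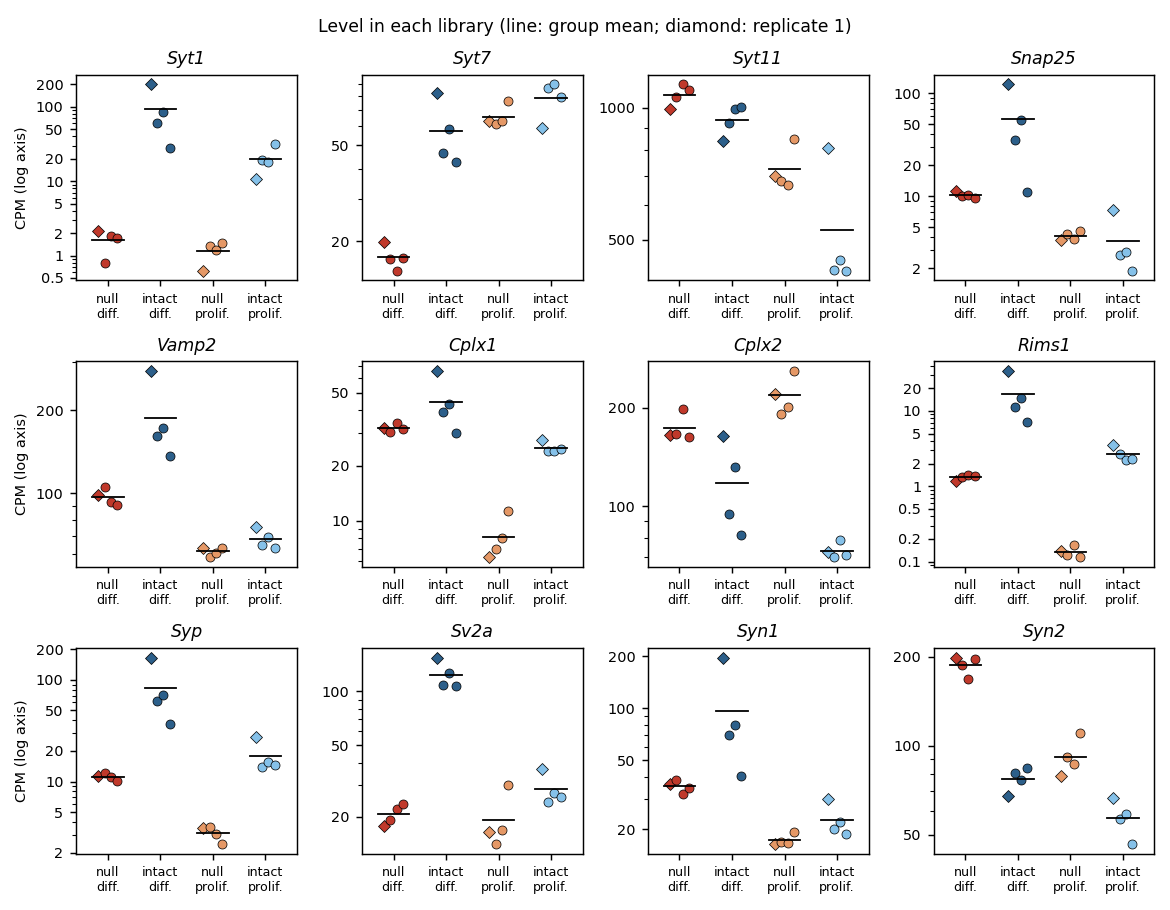
CPM (log axis) of 12 members in each of the 16 libraries, by group (points: libraries, diamonds: replicate 1, lines: means of 4). Syt1 of the null libraries, 0.628 to 2.13 CPM, lies below all intact libraries, at 10.7 to 204 CPM, whereas Syn2 and, in proliferating cells, Cplx2 lie higher in null libraries, and Cplx1 is separated in proliferating cells alone.

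The SNARE genes differed between genotypes in differentiating cells. There 3 of 4 were lower and 1 was higher in null cells, beside 22.0% and 24.3% of all tested genes. Snap25, a SNARE of the target membrane, had 11.1, 10.05, 10.3 and 9.68 CPM in null and 124, 35.4, 55.3 and 10.9 CPM in intact differentiating libraries. In proliferating cells Snap25 had 3.73, 4.32, 3.83 and 4.59 CPM in null and 7.41, 2.65, 2.86 and 1.89 CPM in intact libraries. Intact differentiating libraries thus spread widely, with the lowest at the level of the null libraries, and the fold changes were -2.46 ± 0.53 (edgeR adjusted p = 0.00159) in differentiating and 0.15 ± 0.56 (edgeR adjusted p = 0.857) in proliferating cells. Without intact differentiating replicate 1 the first was -1.72. Stx1a, which encodes syntaxin 1A, had 4.15, 3.43, 3.41 and 4.29 CPM in null and 61.5, 15.6, 26.0 and 10.4 CPM in intact differentiating libraries. Stx1a had 4.47, 3.45, 3.62 and 3.35 CPM in null and 9.93, 6.66, 7.83 and 6.03 CPM in intact proliferating libraries. Null libraries were below intact libraries in both stages, with log2 fold changes of -2.90 ± 0.42 (edgeR adjusted p = 5.6e-05; -2.18 without intact differentiating replicate 1) and -1.03 ± 0.41 (edgeR adjusted p = 0.0588, not called). In proliferating cells it was -0.88 and called without both intact libraries numbered 1 (edgeR adjusted p = 0.0104).

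The vesicle SNAREs moved in opposite directions in differentiating cells. Vamp2, the main synaptobrevin of the forebrain, had 98.6, 105, 93.2 and 90.5 CPM in null and 278, 162, 173 and 137 CPM in intact differentiating libraries, without overlap (-0.95 ± 0.16, edgeR adjusted p = 1.8e-04). In proliferating cells Vamp2 had 63.5, 58.5, 60.7 and 63.4 CPM in null and 75.7, 64.7, 69.1 and 63.2 CPM in intact libraries, which overlapped (-0.15 ± 0.16, edgeR adjusted p = 0.490). Vamp1, the synaptobrevin best known from spinal cord and brainstem, had 10.98, 9.28, 8.52 and 8.70 CPM in null and 5.41, 6.11, 5.40 and 6.59 CPM in intact differentiating libraries. Every null differentiating library was above every intact library (0.67 ± 0.18, edgeR adjusted p = 0.00773). In proliferating cells Vamp1 had 4.92, 6.04, 4.87 and 5.39 CPM in null and 5.28, 2.76, 3.09 and 2.79 CPM in intact libraries (0.60 ± 0.19, edgeR adjusted p = 0.0207). Intact proliferating replicate 1 lay within the null range, and the call was lost without null proliferating replicate 2 or without intact proliferating replicate 2, 3 or 4 (edgeR adjusted p of up to 0.0686).

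The complexins moved in opposite directions in proliferating cells. Both encode small proteins that bind the assembled SNARE complex. Cplx1 (Entrez 12889; GRCm38 chromosome 5, 108518554 to 108550027) had 6.28, 6.97, 7.99 and 11.3 CPM in null and 27.5, 24.0, 23.9 and 24.7 CPM in intact proliferating libraries. Cplx2 (Entrez 12890; chromosome 13, 54301964 to 54383923) had 220.4, 190.5, 201 and 259 CPM in null and 72.2, 69.7, 78.9 and 71.0 CPM in intact proliferating libraries. Neither overlapped between genotypes, Cplx1 being lower (-1.61 ± 0.21, edgeR adjusted p = 3.4e-05) and Cplx2 higher (1.58 ± 0.17, edgeR adjusted p = 7.6e-06) in null cells. In differentiating cells Cplx1 had 32.2, 30.7, 34.3 and 31.8 CPM in null and 66.0, 39.3, 43.6 and 30.1 CPM in intact libraries (-0.47 ± 0.20, edgeR adjusted p = 0.0639). Cplx2 then had 164, 166, 198.5 and 163 CPM in null and 163, 94.5, 132 and 81.5 CPM in intact libraries (0.55 ± 0.17, edgeR adjusted p = 0.0144). The groups met at 163 CPM for Cplx2 and overlapped for Cplx1. The promoters of this pair are shown because the genes moved in opposite directions; each line gives the 250 bases before a RefSeq start on the gene's strand, 5′ to 3′, with CG dinucleotides in capitals. Cplx1 lies at chr5:108550028-108550277 on the minus strand and Cplx2 at chr13:54302306-54302555 on the plus strand of GRCm38.p6. The start used for Cplx1 is the outer end of the gene span given above, whereas that of Cplx2 lies inside its span.
Cplx1: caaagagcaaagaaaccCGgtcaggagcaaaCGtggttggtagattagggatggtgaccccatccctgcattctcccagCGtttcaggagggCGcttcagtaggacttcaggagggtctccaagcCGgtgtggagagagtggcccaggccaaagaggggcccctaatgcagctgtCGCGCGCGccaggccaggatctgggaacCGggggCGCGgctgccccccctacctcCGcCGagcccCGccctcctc
Cplx2: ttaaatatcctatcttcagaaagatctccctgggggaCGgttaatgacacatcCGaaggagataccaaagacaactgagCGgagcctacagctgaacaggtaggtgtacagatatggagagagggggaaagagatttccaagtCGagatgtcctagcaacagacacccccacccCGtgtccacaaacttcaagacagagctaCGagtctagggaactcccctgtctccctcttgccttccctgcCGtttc
The stretch before Cplx1 holds 15 CG, and the stretch before the inner start of Cplx2 holds 7. With the first 50 transcribed bases included the windows hold 24 and 9 CG, beside a median of 7 over the 32851 RefSeq promoter windows of this length.

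RIM proteins link vesicles to calcium channels at the active zone. Of the 4 genes, 3 were lower in null cells in both stages, beside 9.86% of all tested genes. Rims1 had 1.19, 1.32, 1.43 and 1.36 CPM in null and 34.2, 11.2, 14.9 and 7.16 CPM in intact differentiating libraries. In proliferating cells Rims1 had 0.140, 0.123, 0.166 and 0.113 CPM in null and 3.49, 2.65, 2.26 and 2.30 CPM in intact libraries. All null libraries were below all intact libraries, by -3.67 ± 0.38 in differentiating cells (edgeR adjusted p = 3.3e-06; -3.06 without intact differentiating replicate 1) and by -4.26 ± 0.50 in proliferating cells (edgeR adjusted p = 1.3e-05). Its paralog Rims2 had 49.9, 52.5, 51.6 and 48.5 CPM in null and 48.0, 44.2, 53.2 and 46.4 CPM in intact differentiating libraries. Rims2 had 32.2, 30.5, 29.4 and 28.0 CPM in null and 26.0, 20.4, 23.3 and 21.8 CPM in intact proliferating libraries. The genotypes overlapped in differentiating cells (0.08 ± 0.08, edgeR adjusted p = 0.443) and were separate in proliferating cells, with null libraries higher (0.39 ± 0.08, edgeR adjusted p = 0.00143).

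Rims3 and Rims4 encode short RIM proteins. Rims3 had 2.65, 3.31, 3.41 and 2.09 CPM in null and 12.2, 5.51, 8.39 and 4.82 CPM in intact differentiating libraries (-1.43 ± 0.28, edgeR adjusted p = 6.7e-04). In proliferating cells Rims3 had 3.07, 4.07, 3.45 and 2.15 CPM in null and 6.54, 5.41, 5.99 and 4.86 CPM in intact libraries (-0.85 ± 0.28, edgeR adjusted p = 0.0259). Null libraries were lower without overlap in both stages, and the call in proliferating cells was lost without replicate 1 or 4 of the null or 1 or 3 of the intact libraries of that stage (edgeR adjusted p of up to 0.0787). Rims4 had 2.89, 2.33, 1.92 and 1.74 CPM in null and 8.93, 3.87, 4.97 and 3.00 CPM in intact differentiating libraries (-1.23 ± 0.42, edgeR adjusted p = 0.0263). Rims4 had 0.837, 1.05, 1.29 and 3.69 CPM in null and 5.86, 10.2, 10.1 and 9.09 CPM in intact proliferating libraries (-2.33 ± 0.44, edgeR adjusted p = 7.4e-04). The null libraries again lay below the intact libraries in both stages. In differentiating cells the call was lost without intact replicate 1 (-0.83, edgeR adjusted p = 0.105) and without null replicate 3 or 4. In proliferating cells the value was -3.06 without null replicate 4.

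Of the MUNC13 genes, Unc13a encodes the main priming factor of excitatory forebrain synapses. Unc13a had 45.1, 35.9, 33.4 and 34.9 CPM in null and 199, 60.2, 73.2 and 31.0 CPM in intact differentiating libraries (-1.29 ± 0.42, edgeR adjusted p = 0.0207). In proliferating cells Unc13a had 10.8, 9.06, 8.74 and 13.3 CPM in null and 17.98, 8.34, 8.61 and 8.15 CPM in intact libraries (-0.03 ± 0.44, edgeR adjusted p = 0.963). The genotypes overlapped in both stages, and without intact differentiating replicate 1 the difference in differentiating cells was -0.56 and not called (edgeR adjusted p = 0.132); it was also lost without null differentiating replicate 3 (edgeR adjusted p = 0.0518). Without both intact libraries numbered 1 it was -0.55 and called (edgeR adjusted p = 0.0490). Unc13b, a priming factor found in many cell types, averaged 50.2 ± 3.52 CPM in null, against 49.7 ± 4.03 CPM in intact differentiating libraries (0.01 ± 0.09, edgeR adjusted p = 0.918). It averaged 42.8 ± 5.62 CPM in null, against 38.4 ± 1.88 CPM in intact proliferating cells, also not called. Unc13c, known from the cerebellum, had 0 counts over the null and 75 counts over the intact differentiating libraries, and so was at least 29.5-fold lower, taking 3 counts over the null libraries as the limit. In proliferating cells Unc13c had 2 counts in null and 7 counts in intact libraries.

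The scaffold genes Bsn and Pclo, for the giant active zone proteins bassoon and piccolo, were called in neither direction in differentiating cells. Bsn had 40.2, 36.0, 34.6 and 31.4 CPM in null and 132, 47.8, 69.3 and 26.5 CPM in intact differentiating libraries, which overlapped (-0.95 ± 0.42, edgeR adjusted p = 0.0754). In proliferating cells Bsn had 1.99, 1.48, 1.08 and 2.35 CPM in null and 13.9, 5.68, 4.14 and 4.28 CPM in intact libraries. Null libraries were lower there without overlap (-1.98 ± 0.50, edgeR adjusted p = 0.00595; -1.39 without both intact libraries numbered 1). Pclo averaged 49.1 ± 3.27 CPM in null, against 70.9 ± 43.6 CPM in intact differentiating cells, and 13.5 ± 6.17 CPM in null, against 12.6 ± 2.96 CPM in intact proliferating cells, and was called in neither.

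Synaptophysins and SV2 proteins are membrane proteins of the vesicle. Of their 5 genes, 4 were lower in null cells in both stages, beside 9.86% of all tested genes. Sv2c was higher in null differentiating cells and not called between genotypes in proliferating cells. Syp, for the abundant vesicle protein synaptophysin, had 11.3, 12.3, 11.1 and 10.1 CPM in null and 166, 61.9, 71.7 and 36.6 CPM in intact differentiating libraries. In proliferating cells Syp had 3.49, 3.58, 3.04 and 2.41 CPM in null and 27.2, 14.0, 15.7 and 14.6 CPM in intact libraries. Null libraries were lower without overlap in both stages, by -2.91 ± 0.37 (edgeR adjusted p = 1.7e-05) and -2.53 ± 0.39 (edgeR adjusted p = 1.4e-04). Of the exonic bases of Syp, 16.8% lie in exons of Gm14703. Its relative Synpr, for synaptoporin, had 0.732, 1.53, 1.87 and 1.07 CPM in null and 33.3, 12.2, 15.1 and 8.21 CPM in intact differentiating libraries (-3.70 ± 0.56, edgeR adjusted p = 7.8e-05). Synpr had 0, 0.308, 0.208 and 0 CPM in null and 7.07, 3.63, 3.13 and 3.02 CPM in intact proliferating libraries (-5.32 ± 0.77, edgeR adjusted p = 7.6e-05). All null libraries were again below all intact libraries, and the value in proliferating cells was -6.07 without null proliferating replicate 2.

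SV2 proteins are transporter-like glycoproteins of secretory vesicles, and SV2A is the binding site of the antiepileptic drug levetiracetam. Sv2a had 17.8, 19.3, 22.2 and 23.7 CPM in null and 154, 109, 126 and 107 CPM in intact differentiating libraries, far apart (-2.58 ± 0.22, edgeR adjusted p = 4.7e-07). In proliferating cells Sv2a had 16.4, 14.1, 16.8 and 30.0 CPM in null and 37.2, 24.2, 27.2 and 25.7 CPM in intact libraries (-0.56 ± 0.21, edgeR adjusted p = 0.0496). Null proliferating replicate 4, at 30.0 CPM, was within the intact range, and the call was lost in 15 of 22 alternatives (edgeR adjusted p of up to 0.148). Sv2b (Entrez 64176; GRCm38 chromosome 7, 75114894 to 75309262) had 0, 0.0306, 0.0426 and 0 CPM in null and 25.8, 7.41, 17.5 and 2.10 CPM in intact differentiating libraries. These are 3 counts over the null and 1620 counts over the intact libraries, a ratio of 0.157% (95% exact counting interval 0.0323 to 0.459%). In proliferating cells Sv2b had 0, 0.0617, 0 and 0 CPM in null, which is 1 count, and 1.07, 0.271, 0.138 and 0.180 CPM in intact libraries, which is 34 counts, a ratio of 2.34% (0.0577 to 14.0%). Null libraries were below intact libraries in both stages; the call in proliferating cells was lost without intact proliferating replicate 1 (edgeR adjusted p = 0.0867) and without null proliferating replicate 4 (edgeR adjusted p = 0.0590). Fitted fold changes of so few counts depend on single libraries: they were -9.03 in differentiating cells, or -9.77 without null differentiating replicate 3, and -4.87 in proliferating cells, or -6.59 without null proliferating replicate 2. Sv2c had 28.1, 34.8, 53.2 and 37.3 CPM in null and 12.5, 18.4, 20.7 and 20.7 CPM in intact differentiating libraries, and was higher in null cells without overlap (1.09 ± 0.32, edgeR adjusted p = 0.0128). In proliferating cells Sv2c had 26.9, 20.8, 19.2 and 6.04 CPM in null and 20.3, 15.9, 17.5 and 17.5 CPM in intact libraries, with the intact range inside the null range (0.03 ± 0.33, edgeR adjusted p = 0.950).

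Synapsins coat vesicles and tether them in the reserve pool, and the 3 genes did not move together. Syn1 had 36.4, 38.7, 31.9 and 34.6 CPM in null and 197, 70.6, 80.0 and 40.4 CPM in intact differentiating libraries, without overlap (-1.45 ± 0.33, edgeR adjusted p = 0.00242; -0.85 without intact differentiating replicate 1). In proliferating cells Syn1 had 16.3, 16.9, 16.7 and 19.4 CPM in null and 30.0, 19.9, 22.0 and 18.8 CPM in intact libraries (-0.39 ± 0.34, edgeR adjusted p = 0.391). Syn3 had 17.4, 16.8, 15.5 and 16.2 CPM in null and 210.4, 54.1, 63.6 and 19.8 CPM in intact differentiating libraries (-2.40 ± 0.54, edgeR adjusted p = 0.00193; -1.47 without intact differentiating replicate 1). Syn3 had 1.36, 0.987, 1.12 and 1.39 CPM in null and 11.8, 3.57, 3.87 and 4.41 CPM in intact proliferating libraries (-2.25 ± 0.64, edgeR adjusted p = 0.0117). Null libraries of Syn3 were below intact libraries in both stages, and the call in proliferating cells was lost without intact proliferating replicate 1 (-1.67, edgeR adjusted p = 0.0546). Of its exonic bases, 14.1% lie in exons of Timp3, a gene within it. Syn2 (Entrez 20965; GRCm38 chromosome 6, 115134902 to 115282626) had 198, 187, 168 and 196 CPM in null and 67.7, 80.7, 76.3 and 83.9 CPM in intact differentiating libraries. In proliferating cells Syn2 had 78.9, 91.1, 86.8 and 110.0 CPM in null and 66.6, 56.2, 58.9 and 46.3 CPM in intact libraries. Every null library was above every intact library of its stage, by 1.28 ± 0.12 in differentiating cells (edgeR adjusted p = 8.9e-07) and 0.69 ± 0.12 in proliferating cells (edgeR adjusted p = 3.0e-04). None of the 22 alternatives ended either call.

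The make-up of the families by length-corrected level is given next; these shares of summed RPKM are given with no test. Cplx2 made up 70.4 ± 1.22% of complexin RPKM in null and 54.0 ± 2.57% in intact differentiating cells, and 92.3 ± 1.24% and 56.4 ± 2.30% in null and intact proliferating cells. Syn2 made up 72.8 ± 1.28% of synapsin RPKM in null and 32.5 ± 15.6% in intact differentiating cells, where Syn1 held 24.2 ± 1.24% and 55.3 ± 9.92%. By the deposited gene models, the SV2 family was mostly Sv2c in null differentiating cells, at 62.4 ± 4.52%, and mostly Sv2a in intact differentiating cells, at 82.9 ± 1.80%. Within the ranges of single libraries, the shares of Cplx2, Syn2 and Sv2c in differentiating cells did not overlap between genotypes. Syt11 held 95.8 ± 0.274% of synaptotagmin RPKM in null and 65.2 ± 23.5% in intact differentiating cells, where Syt4 took 17.7 ± 17.97% of the intact sum. Without intact differentiating replicate 1, Syt11 held 76.4 ± 8.99% and Syt4 8.98 ± 4.84% of the intact sum (n = 3). Summed over its 3 members, the SV2 family reached 14.3 RPKM in null and 38.3 RPKM in intact differentiating cells, while the complexins reached 49.8 and 44.3 RPKM. Synapsins reached 45.6 RPKM in null and 51.2 RPKM in intact differentiating cells, an order that turned on intact replicate 1, without which the intact mean was 37.9 RPKM. Without that library the intact means of the SV2 family and the complexins were 35.4 and 38.0 RPKM. Rims2 held 52.1 ± 3.56% of RIM RPKM in null and 27.3 ± 8.42% in intact differentiating cells. Shares within families depend on the gene models. Those deposited for Rims3 and Rims4 span 977 and 832 bases, against 7972 and 4962 exonic bases in the GENCODE annotation. The deposited models of Sv2c and Sv2a span 4252 and 3920 bases, against 9700 and 4636 exonic bases. Which of Sv2c and Sv2a holds more of the family in null differentiating cells therefore depends on the models as well. Snap25 and Vamp1 also differ, at 2119 and 3154 bases against 6791 and 10167.

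**Figure D4:**
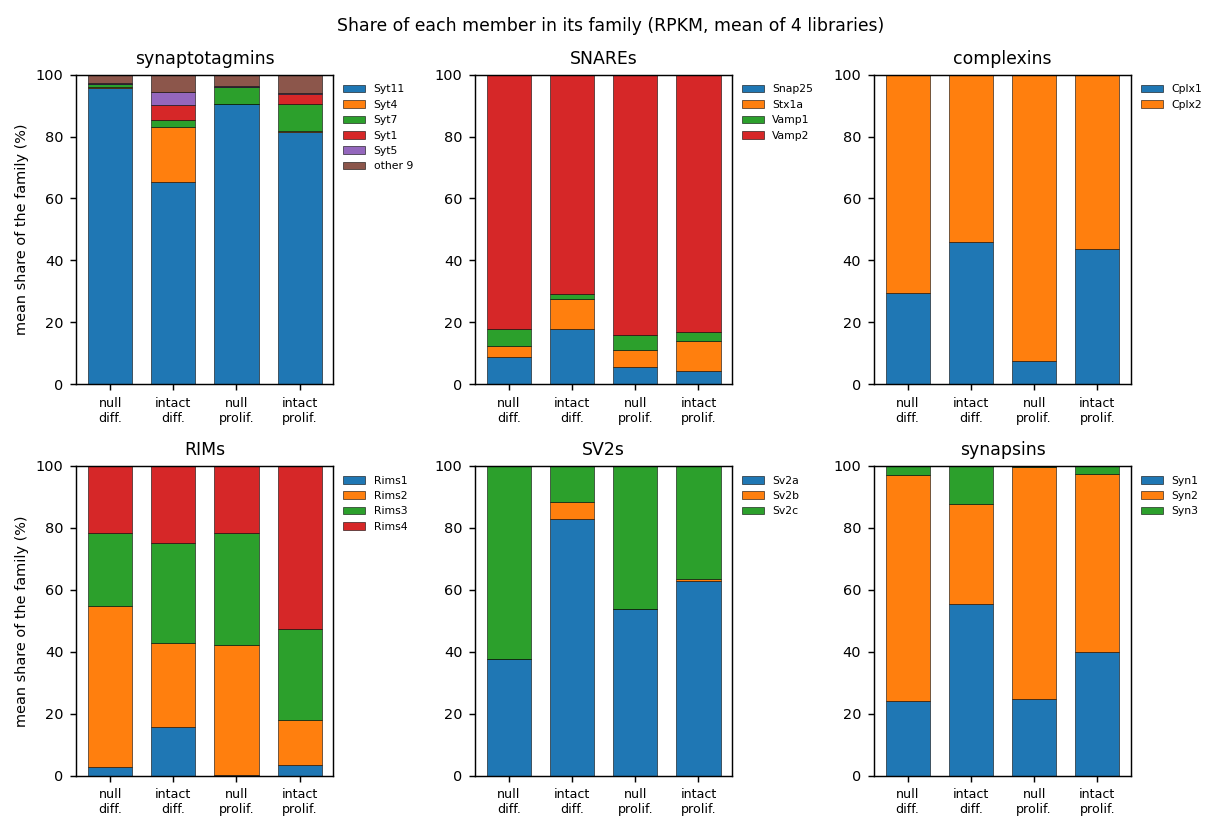
Mean share (%, of summed RPKM, 4 libraries) of each member in its family, by group; bars are stacked to 100%, and 9 synaptotagmins are joined. By the deposited gene models, the share of Sv2c in differentiating cells is 62.4% in null and 11.6% in intact cells. That of Syn2 is 72.8% in null and 32.5% in intact differentiating cells.

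Most of the machinery was higher after differentiation in both genotypes. In null cells 22 members were higher and 4 lower after differentiation than in proliferating cells, beside 34.6% and 34.4% of all tested genes. In intact cells 27 were higher and 2 lower, beside 36.7% and 35.3% of all tested genes. The median log2 response was 0.83 in null and 1.41 in intact cells, against 0.02 over all tested genes in both. The 20 members higher in both genotypes, beside 26.2% of all tested genes, included Bsn (4.33 ± 0.51 in null and 3.30 ± 0.47 in intact cells), Syn3 (3.73 ± 0.63 and 3.88 ± 0.58) and Rims1 (3.26 ± 0.51 and 2.66 ± 0.37). Without intact differentiating replicate 1 the intact responses of Syn3 and Rims1 were 2.95 and 2.05. Called higher in intact cells alone were Syt1, Syt3, Syt4, Stx1a, Sv2a, Sv2b and Cplx2, beside 9.36% of all tested genes. Syt2 and Sv2c were called higher in null cells alone, beside 7.44% of all tested genes, and Syt10 and Syt13 were called lower in null cells alone, beside 5.58%. Syt7 and Syt12 were lower after differentiation in both genotypes, beside 27.7% of all tested genes, and the call of Syt7 in intact cells (-0.45 ± 0.18, edgeR adjusted p = 0.0349) was lost in 10 alternatives. Whether a gene is called in 1 genotype alone does not show that the responses differ, which the interaction tests.

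The response differed between genotypes for 10 members. The null response minus the intact response was lower for 8 and higher for 2, beside 9.93% and 12.7% of all tested genes, with a median of -0.48 over the members and 0.04 over all tested genes. Sv2a rose with differentiation in intact cells and did not change detectably in null cells, giving responses of 0.09 ± 0.21 in null and 2.12 ± 0.21 in intact cells and an interaction of -2.03 ± 0.30 (edgeR adjusted p = 3.5e-04). Syt7 fell in both, by 1.94 in null and 0.45 in intact cells on the log2 scale (interaction -1.49 ± 0.26, edgeR adjusted p = 0.00108). The complexins crossed: Cplx1 had a response of 1.98 ± 0.21 in null and 0.84 ± 0.20 in intact cells (interaction 1.14 ± 0.29, edgeR adjusted p = 0.0107), and Cplx2 one of -0.33 ± 0.17 in null and 0.69 ± 0.17 in intact cells (interaction -1.02 ± 0.24, edgeR adjusted p = 0.00709). The null response of Cplx2 was not called (edgeR adjusted p = 0.0915), but was without both intact libraries numbered 1 (edgeR adjusted p = 0.0336). Syn2 had a response of 1.03 ± 0.11 in null and 0.44 ± 0.11 in intact cells (interaction 0.60 ± 0.16, edgeR adjusted p = 0.0161).

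The SNARE genes Snap25, Stx1a and Vamp2 all responded less in null cells. Snap25 had responses of 1.32 ± 0.54 in null and 3.93 ± 0.58 in intact cells (interaction -2.61 ± 0.77, edgeR adjusted p = 0.0240; intact response 3.19 and interaction -1.87 without intact differentiating replicate 1). The interaction was lost without intact proliferating replicate 2 or 3 (edgeR adjusted p of up to 0.0502), and the null response without any 1 of the 8 null libraries (edgeR adjusted p of up to 0.0825). The interactions of Stx1a and Vamp2 were -1.87 ± 0.57 (edgeR adjusted p = 0.0287) and -0.80 ± 0.22 (edgeR adjusted p = 0.0181). That of Stx1a was -1.15 without intact differentiating replicate 1 and was lost without replicate 1 of the null proliferating, 2 or 4 of the intact proliferating or 2 or 3 of the null differentiating libraries (edgeR adjusted p of up to 0.0569). Syt13 and Syt3 had interactions of -3.57 ± 0.90 (edgeR adjusted p = 0.0111) and -2.75 ± 0.89 (edgeR adjusted p = 0.0371). Without intact differentiating replicate 1 these were -2.77 and -1.88, and that of Syt3 was then not called (edgeR adjusted p = 0.0646); it was lost in 10 alternatives in all. Without both intact libraries numbered 1, 12 members had a lower and 3 a higher response in null cells, with Syt4, Syt5, Syt11 and Rims2 added to the lower and Rims4 to the higher ones. Calls also rose over all genes, to 2104 lower and 2488 higher of 15252 tested, from 1507 and 1935 of 15177 in the main fit.

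**Figure D5:**
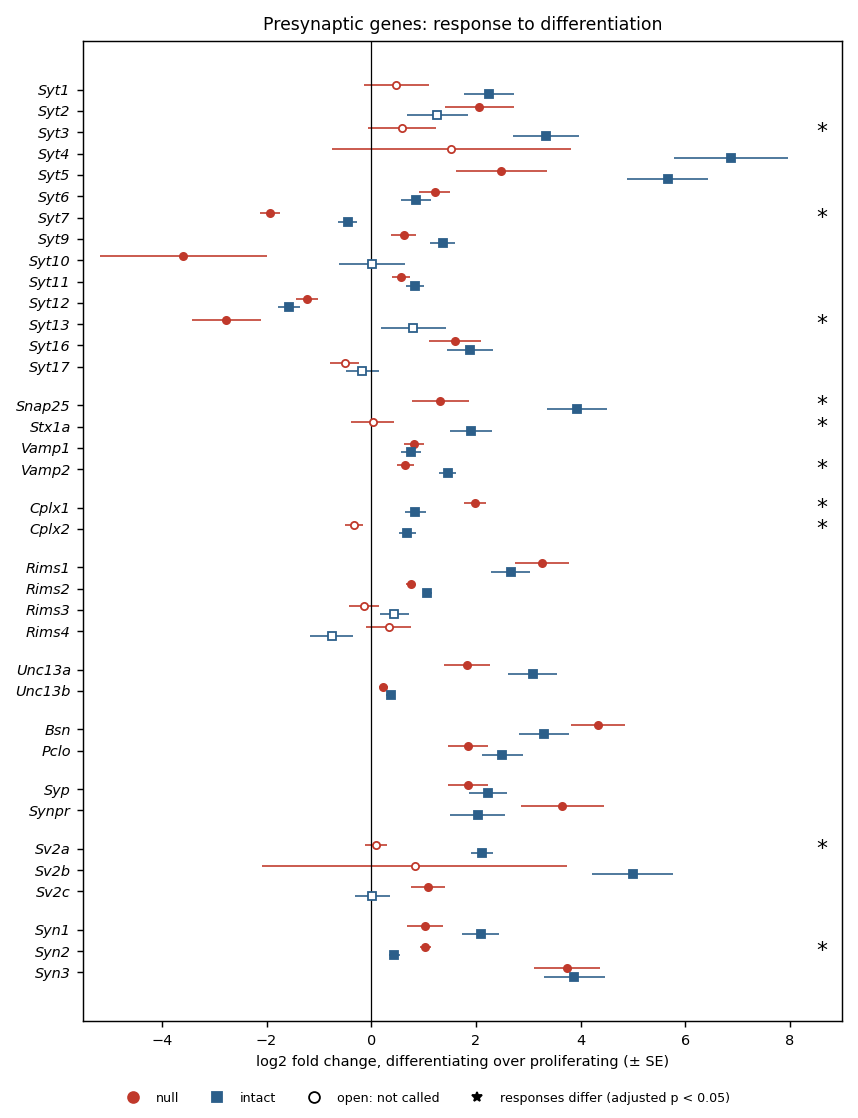
Log2 fold change (differentiating over proliferating, ± SE) of the 36 tested members in null (circles) and intact cells (squares), ordered by role; open symbols were not called and stars mark the 10 members whose responses differed. Most symbols lie above 0, and Sv2a, at 0.09 in null and 2.12 in intact cells, is among the 8 with a lower response in null cells.

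A further 57 genes of vesicle priming, fusion, recycling and transmitter loading, of which 50 were tested, were counted in the same comparisons. In differentiating cells 32 of the 57 were lower and 3 higher in null cells, beside 22.0% and 24.3% of all tested genes. In proliferating cells 18 were lower and 4 higher, beside 19.7% and 19.0%. Those with the lowest adjusted p in differentiating cells were Cadps2, a priming factor of dense-core vesicles, at 0.259 ± 0.172 CPM in null, against 11.6 ± 1.10 CPM in intact cells (-5.39 ± 0.35), the scaffold kinase gene Cask (-1.19 ± 0.08), and the active zone genes Erc2 (-3.96 ± 0.41) and Ppfia2 (-7.58 ± 0.79). In proliferating cells they were Cadps2 (-3.24 ± 0.34), Syt14 (-2.80 ± 0.38), the endocytic adaptor gene Snap91 (-1.38 ± 0.19) and Napa, for the SNARE-recycling protein alpha-SNAP, which was higher in null cells at 105 ± 1.58 CPM against 81.1 ± 2.11 CPM in intact cells (0.38 ± 0.05). With differentiation 23 of the 57 were higher and 4 lower in null cells, beside 34.6% and 34.4% of all tested genes, and 39 were higher and 2 lower in intact cells, beside 36.7% and 35.3%. The response was lower in null cells for 12 and higher for 2, beside 9.93% and 12.7%. Slc17a6, Slc17a7 and Slc32a1 of this list also serve as neuron markers above.

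RefSeq promoter windows of 300 bases, 250 before to 50 after the start, were found for 26 of the 37 members, in 35 windows. They held a median of 18 CG, with a range of 0 to 49, against 7 over all 32851 windows. Those windows belong to 27025 genes, whether or not tested here, and no median over the tested genes was made. The 22 windows of the 15 members lower in null differentiating cells had a median of 17 CG. The 5 windows of 4 higher members had 14, and the 7 windows of 6 members not called had 28. Some members have more than 1 window, such as Sv2b with 10, 9, 2 and 0 CG, so these medians are not over genes. The remaining window is of the untested Unc13c. Both strands were searched for TTCAGCACC and GGACAG, the outer parts of the repressor element 1 bound by the neuronal gene repressor REST; the motifs do not overlap each other. TTCAGCACC was in 2 member windows, of Syn1 and Unc13a, and in 0.371% of all windows. GGACAG was in 10 member windows and in 22.2% of all windows. The motifs joined by a spacer of 2 bases were in 0 member windows and in 4 of all windows. Only exact matches were counted, and these were in 0.0122% of all windows. A count of 0 in 35 member windows therefore does not show that the element is absent. The stretch before Syn1 is shown for its match, in capitals, which begins 232 bases before the start. The stretch covers chrX:20920919-20921168 on the minus strand of GRCm38.p6. After the match and 2 further bases it reads GGTCAG, where the search asked for GGACAG, so a joined site with that difference was not counted.
Syn1: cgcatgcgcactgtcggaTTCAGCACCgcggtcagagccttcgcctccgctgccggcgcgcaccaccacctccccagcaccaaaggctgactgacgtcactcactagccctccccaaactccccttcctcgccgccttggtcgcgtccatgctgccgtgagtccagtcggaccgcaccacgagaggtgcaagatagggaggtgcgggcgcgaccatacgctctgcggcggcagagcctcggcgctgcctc
A match of letters is a description and no measured binding. In the levels above, Syn1 and Unc13a were both lower in null differentiating cells and not called in proliferating cells. They rose with differentiation in both genotypes. Neither pattern was particular to them, as 11 members were lower in differentiating cells alone and 20 rose in both genotypes, beside 26.2% of all tested genes. Over all tested genes 22.0% were lower in differentiating cells and 9.86% in both stages. The share lower in differentiating cells alone was not counted. The call of Unc13a in differentiating cells was lost without intact differentiating replicate 1.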

How the data were processed

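Poly(A) RNA of 16 libraries, 4 in each of 4 groups, was sequenced as paired reads of 75 bases. The authors deposited raw counts per gene and library, with gene lengths, made with bcl2fastq and featureCounts on mm10 per the submitters' processing notes; the aligner, the annotation, tool versions and use of strand were not given in the sources used here, and reads shared by overlapping or antisense genes could therefore not be separated. A deposited table that combines the same counts was not used. Symbols were matched for 25275 of 27179 gene IDs with a RefSeq table of GRCm38.p6, which also gave the promoter windows.

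Counts were filtered with filterByExpr (minimum count 10), scaled by TMM and fitted in edgeR 4.0.16 (R 4.3.3) with 1 mean per group over all 16 libraries. The quasi-likelihood test was applied to 15177 genes, with Benjamini-Hochberg adjustment over all of them and calls at an adjusted p under 0.05. The SE of a log2 fold change is the size of edgeR's unshrunk estimate divided by the square root of F. The fold changes given are edgeR's slightly shrunk estimates, which can differ from the unshrunk ones where counts are few. Intervals and the floor of 3 counts cover counting error only. Libraries are labelled as replicates from separate isolates of each genotype; whether a number marks the same foetus in both stages is not stated. Same-numbered libraries of the 2 stages did not deviate together in every case (r of -0.231 to 0.126), so the test did not pair them. Alternatives were other scalings, no filter, DESeq2 1.42.0, replicate blocks and leaving out libraries.

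The members and lists were chosen with earlier results of these data known. Values in every library are given for members with a group mean of at least 2 CPM that were called between genotypes; from the other presynaptic genes, up to 4 called genes with the lowest adjusted p are named in each genotype comparison.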

Additional observations from a re-analysis of the deposited data

Results flagged for a closer look

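Among 144 pairs of a member and a group, 17 had 1 library whose gap to the nearest of the other 3 exceeded Dixon's 95% limit for 4 samples. A rate of about 1 in 20 holds for independent normal values. These CPM were not logged, some rest on single counts and many pairs share a library, so 17 was not set against that rate. In intact proliferating cells the library was replicate 1 each time, and it was the highest. It had 9.30 CPM of Syt4, against 0.405 to 0.737 CPM in the other 3 libraries, 1.50 CPM of Syt5 (others 0.271 to 0.368) and 808 CPM of Syt11 (others 425 to 449). It had 17.98 CPM of Unc13a (others 8.15 to 8.61), 13.9 CPM of Bsn (others 4.14 to 5.68) and 5.28 CPM of Vamp1 (others 2.76 to 3.09). Among vesicle proteins it had 27.2 CPM of Syp (others 14.0 to 15.7), 7.07 CPM of Synpr (others 3.02 to 3.63), 1.07 CPM of Sv2b (others 0.138 to 0.271) and 11.8 CPM of Syn3 (others 3.57 to 4.41). In intact differentiating cells replicate 1 stood out for Syt4, with 996 CPM against 36.4 to 146 CPM.

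In null differentiating cells replicate 3 had 198.5 CPM of Cplx2 (others 163 to 166), and replicate 4 held the single count of Syt10, 0.0290 CPM. In null proliferating cells replicate 4 had 76.1 CPM of Syt7 (others 61.4 to 63.0), 3.69 CPM of Rims4 (others 0.837 to 1.29) and the lowest level of Unc13b, 34.4 CPM (others 45.1 to 46.0). The single count of Sv2b in that group, 0.0617 CPM, was in replicate 2.

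The response to differentiation differed between genotypes, by edgeR's interaction term, for 10 members. The null response minus the intact response, on the log2 scale, was -2.75 for Syt3, -1.49 for Syt7, -3.57 for Syt13, -2.61 for Snap25, -1.87 for Stx1a, -0.80 for Vamp2, -2.03 for Sv2a and -1.02 for Cplx2. It was 0.60 for Syn2 and 1.14 for Cplx1.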

How the results depend on the processing

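No member's called fold change changed sign under any alternative. The count of members lower after differentiation in intact cells, 2, was 1 with relative log expression size factors, with library size scaling alone, with DESeq2 and with the block by isolate; the gene lost was Syt7 in each. The count of members with a lower response in null cells, 8, was 13 with DESeq2. Over all tested genes that count was 2057 with DESeq2, against 1507 in the main fit. Leaving out 1 library at a time gave, between genotypes, 20 to 25 lower and 5 higher members in differentiating cells and 10 to 16 lower and 4 to 7 higher members in proliferating cells. It gave 3 to 6 lower and 19 to 22 higher members for the null response, 1 to 3 lower and 26 to 29 higher members for the intact response, and 5 to 12 lower and 2 to 3 higher members for the interaction. The 10 lower members in proliferating cells and the 12 of the interaction were found without intact proliferating replicate 1, and the 5 of the interaction without intact proliferating replicate 2. Without intact proliferating replicate 1, 3068 of all tested genes were lower in proliferating cells and 1857 had a lower response in null cells. Without intact proliferating replicate 2, 1220 had a lower response. Whether replicate numbers pair the samples is not settled by the labels: the deviations of same-numbered intact libraries of the 2 stages correlated at 0.126, 0.123, -0.231 and 0.117, those of null libraries at -0.0284 to 0.0331, and 1 of 8 libraries, null replicate 3, correlated best with its own number. With the number as a replicate block, members lower and higher were 23 and 5 in differentiating cells, 16 and 5 in proliferating cells, 4 and 22 for the null response, 2 and 27 for the intact response and 7 and 2 for the interaction. With a block by isolate, which assumes that a number marks the same foetus in both stages, they were 4 and 22, 1 and 28, and 10 and 2 for the null response, intact response and interaction. The call of Syt6 in the intact response was lost without intact differentiating replicate 1 (adjusted p = 0.0562), those of Syt9, Syt10 and Unc13b in the null response without 4, 5 and 3 single null libraries. Counts of a few reads, as in null cells for Syt10, Sv2b and Unc13c, limit what depth can show.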
